A study of Mus musculus with 30 samples.

Results

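The cytochrome P450 enzymes of families 1 to 4 were described in primary mouse hepatocytes, and in macrophages where they were detected. Members were all rows of the hepatocyte count table whose gene symbol reads Cyp, then a family number from 1 to 4, 1 subfamily letter and a number, with at least 10 counts summed over the 12 hepatocyte libraries. The rule gave 52 members out of 75 such rows and 24453 genes, and it used no difference between groups. Symbols that end in a letter were not members.

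P450 enzymes of these families are haem proteins of the endoplasmic reticulum that oxidise drugs, pollutants, steroids, bile acids and fatty acids, with electrons passed on by the reductase Por. In liver their genes are read-outs of ligand-activated factors: Cyp1a genes of the aryl hydrocarbon receptor (AhR), Cyp2b10 of the constitutive androstane receptor (CAR), Cyp3a11 of the pregnane X receptor (PXR) and Cyp4a genes of PPAR-alpha. Their basal level in hepatocytes depends on liver-enriched factors such as HNF4-alpha, and it falls when hepatocytes are kept in culture.

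Polyadenylated RNA was sequenced from hepatocytes, 2 replicates per group, and from macrophages elicited with thioglycollate, 3 replicates per group. Every group, vehicle included, was switched 24 h before treatment to 10% serum depleted of lipids, together with mevastatin (10 uM), a statin, and mevalonate (50 uM). Exposure to the ligand lasted 18 to 20 h. Desmosterol, a sterol precursor of cholesterol that activates the liver X receptors (LXR), was given at 10 uM. The other agents were given at 1 uM: the cholenamides DMHCA and MePipHCA, which differ in the group on the amide nitrogen, and a pair of synthetic, non-sterol LXR agonists, GW3965 and T0901317. Hepatocytes were kept in Hepatozyme and macrophages in RPMI, and the sample titles of the cell types carry different dates. Cell type, medium and title date therefore cannot be told apart. The labels do not state if replicates were different animals, different cultures or neither. P-values therefore reflect the scatter of these libraries alone, some of which may be technical.

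Hepatocyte libraries held 6.63 to 18.6 M exon counts and macrophage libraries 3.86 to 15.7 M. The summed level of 11 hepatocyte markers was 33991 to 41966 CPM (counts scaled to a common library size with TMM factors) in the hepatocyte libraries, against 184 to 330 CPM for 11 markers of macrophages and Kupffer cells and 1.91 to 4.18 CPM for 8 of stellate cells and fibroblasts. Summed markers of cholangiocytes (5 genes) were 275 to 481 CPM in these libraries, and those of endothelial cells (6 genes) 42.6 to 55.6 CPM. In bulk RNA, fewer cells of a type and less RNA per cell cannot be told apart. Desmosterol replicate 1 and T0901317 replicate 2 stood farthest from the other hepatocyte libraries, with median distances of 2.37 and 2.40 on the log2 scale against 1.95 to 2.24, and had the fewest genes detected. On the list of 12 LXR and SREBP-1c targets, 6 rose with GW3965 and 7 with T0901317, and none rose with desmosterol, DMHCA or MePipHCA in hepatocytes. With MePipHCA 1 of the 12 was called lower, Abca1, the cholesterol efflux transporter. With GW3965 Abca1 rose, from 174 CPM in vehicle to 828 CPM (adjusted p = 2.04e-16, edgeR).

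Cyp2e1, which oxidises ethanol and acetaminophen, was the most abundant member per transcript length, at 87.6 and 87.0 RPKM in the 2 vehicle libraries (RPKM is CPM per kilobase of transcript). Cyp2c70 followed at 74.0 and 69.4 RPKM, an enzyme that makes muricholic acids, the hydrophilic bile acids of mice. Cyp4v3, the mouse counterpart of a human fatty acid omega-hydroxylase, stood at 72.1 and 64.6 RPKM. Cyp2c70 was the higher of these 2 in each vehicle library, but their ranges overlapped, and 2 libraries do not settle their order. Cyp2b10 had 71.5 and 51.2 RPKM, a range that overlapped those of Cyp2c70 and Cyp4v3. Cyp3a11, at 56.0 and 59.7 RPKM, lay inside the range of Cyp2b10. The AhR target Cyp1a2 lay lower, at 15 and 12.4 RPKM, and Cyp4a10, an omega-hydroxylase of fatty acids, at 2.63 and 3.14 RPKM.

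Over all 12 hepatocyte libraries the 14 Cyp2c members held 24% of the summed RPKM of the set, the 7 Cyp2d members 14.8%, the 5 Cyp3a members 13.8% and Cyp2e1 alone 10.8%. Cyp4v3 held 8.68% and Cyp2b10 8.06%. The 2 Cyp1a members held 1.90% and the 4 Cyp4a members 0.654%. Many subfamilies sit in clusters. The Cyp2c members lie on chromosome 19 between 39007019 and 40187286 (mm10), except Cyp2c44, which lies apart at 44005022 to 44029247. Some members share long stretches of sequence. By words of 50 bases, 43.3% of the Cyp2c68 transcript, 40.5% of Cyp2d10 and 72.1% of Cyp2c40 also occur in another gene, so reads could be split or lost there. The shares were 0% for Cyp2c70, 4.76% for Cyp2e1, 10.5% for Cyp2d26 and 7.02% for Cyp4v3.

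**Figure D1:**
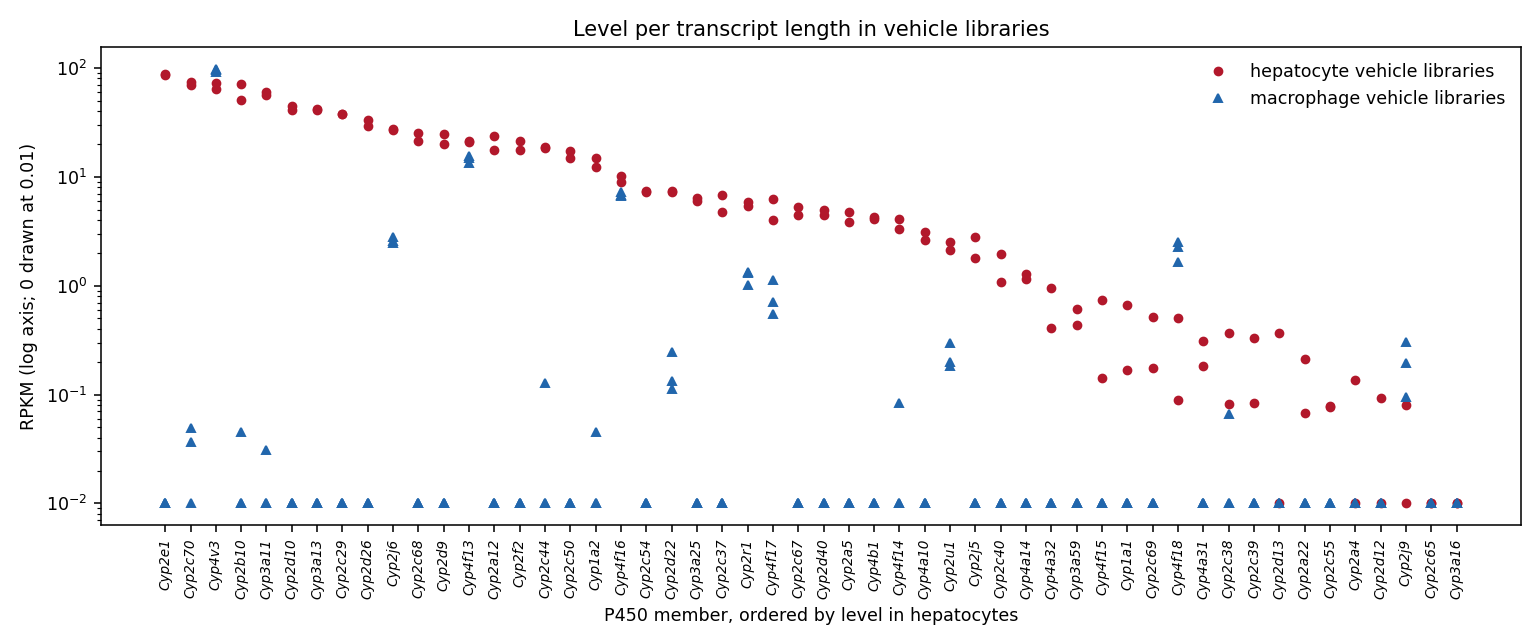
Level of each of the 52 members in the vehicle libraries, as RPKM on a log axis (0 drawn at 0.01), with 2 hepatocyte libraries as circles and 3 macrophage libraries as triangles. Cyp2e1 is highest in hepatocytes at 87.6 and 87.0 RPKM, and Cyp4v3 stands near its hepatocyte level in macrophages while most other members are at or near 0 there.

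In hepatocytes the ligands called few members. Of the 44 members that passed the filter on low counts, Cyp2c70 rose with desmosterol, and no member rose with any other ligand. With MePipHCA, Cyp2c70, Cyp2d26 and Cyp2e1 fell. With GW3965 Cyp2c70 fell, and with T0901317 Cyp2c68, Cyp2c70 and Cyp4v3 fell. A call is an adjusted p under 0.05 in edgeR's quasi-likelihood test, adjusted over all 13176 genes tested.

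With desmosterol 1 of 44 members was called, and 0.364% of all genes were. With MePipHCA 3 of 44 members were called, all lower, and 2.17% of all genes were called. With GW3965 1 of 44 was called, lower, against 0.478% of all genes. With T0901317 3 of 44 were called, all lower, against 0.941%. With DMHCA 0 of 44 members and 0 of 13176 genes (0%) were called by edgeR, DESeq2 also called 0 members, and 4 members and 615 genes had an unadjusted p under 0.05. All 5 comparisons share the vehicle libraries.

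The median log2 fold change of the 44 members was -0.06 in the desmosterol comparison, -0.10 in that of DMHCA and -0.14 in that of MePipHCA. It was -0.16 for GW3965, and T0901317 had -0.17. Over all genes tested it was 0.00 in each. The change was below 0 for 25, 29, 35, 32 and 32 members in that order. Both MePipHCA libraries lay outside the vehicle range for 20 of 44 members, 19 of them below it, where 43.5% of all genes did so in either direction. For 27 to 30 of the 44 members (61.4% to 68.2%), by ligand, the 95% interval lay within a 2-fold change either way. The share over all genes tested was higher, at 73.5% to 75%. The intervals of the other members reached past a 2-fold change, among them Cyp2c68 with T0901317, which fell. Cyp2j9, with few counts, had 0.156 and 0 CPM in vehicle and an interval of 0.65 to 6.92 on the log2 scale with desmosterol (adjusted p = 0.481).

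**Figure D2:**
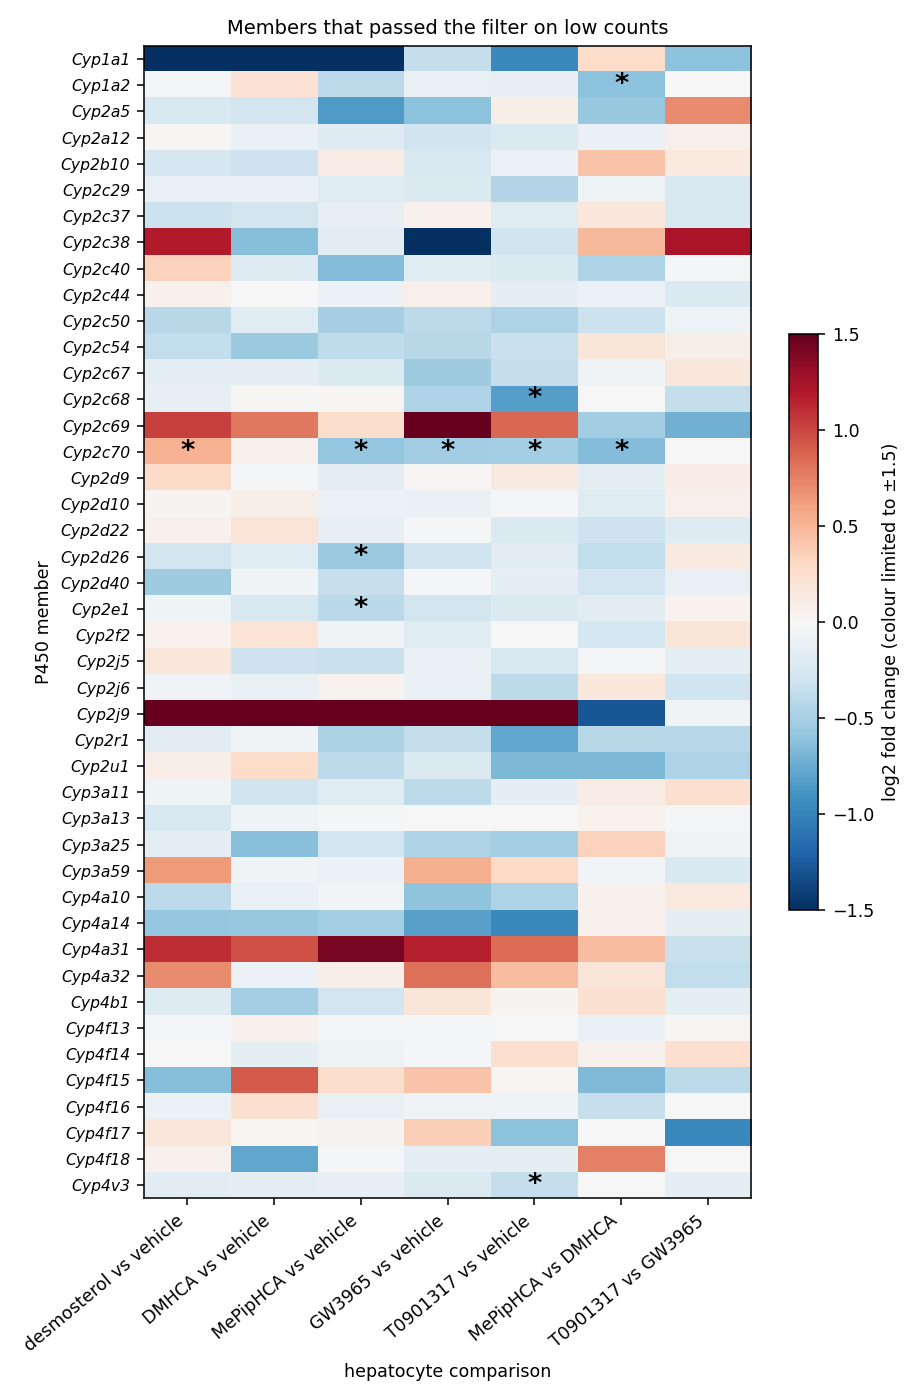
Log2 fold change (colour, limited to 1.5 either way) of the 44 hepatocyte members that passed the filter, in rows by subfamily, for the 5 ligands over vehicle and 2 pairs of ligands in columns, with an asterisk for an adjusted p under 0.05. Cyp2c70 carries 5 of the 10 asterisks, and it is the only member marked in more than 1 column.

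Cyp2c70 was the member with most calls. Vehicle libraries held 126 and 118 CPM, desmosterol libraries 189 and 160, and DMHCA libraries 123 and 132. MePipHCA libraries held 81.3 and 81.8 CPM, GW3965 libraries 88.0 and 82.4, and T0901317 libraries 76.6 and 95.3. Both desmosterol libraries lay above the other 10, the DMHCA libraries stood about the vehicle level, and the 6 libraries of the other ligands lay below both vehicle libraries.

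Desmosterol raised Cyp2c70 1.43-fold (log2 fold change 0.52 ± 0.11 SE, adjusted p = 0.0193). MePipHCA lowered it by -0.58 ± 0.11 (adjusted p = 0.00214), GW3965 by -0.52 ± 0.11 (adjusted p = 0.0172) and T0901317 by -0.51 ± 0.11 (adjusted p = 0.0158), all on the log2 scale. DMHCA left it at 0.07, with a 95% interval of -0.16 to 0.29. The MePipHCA call held in all 12 alternative analyses, with adjusted p up to 0.0487. The desmosterol call was lost without desmosterol replicate 1 (adjusted p = 0.391) and without either vehicle library (0.0797 and 0.334). The GW3965 call was lost without any 1 of the 4 libraries compared (0.0907 and 0.215 for the GW3965 libraries, 0.176 and 0.0506 for vehicle). The T0901317 call was lost without T0901317 replicate 1 (0.295) or either vehicle library (0.121 and 0.0542). Such fits leave 1 library in an arm and take its spread from the other groups.

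Cyp2c70 is printed first below because it carried most of the calls, with Cyp2c68, its cluster neighbour called with T0901317, Cyp3a11, a PXR target that was not called, and Cyp2e1, which fell with MePipHCA. Each line holds the 250 bases before the start site, 5′ to 3′ on the strand of the gene, from RefSeq on GRCm38.p6, for chr19:40187287-40187536 (minus strand), chr19:39741102-39741351 (minus), chr5:145879855-145880104 (minus) and chr7:140763569-140763818 (plus). Capitals mark exact matches, on either strand, to CAAAGTCCA (an HNF4 element), the nuclear receptor half-site AGGTCA, its variant form AGTTCA, the core of the AhR site GCGTG, and the TATA box TATAAA.
Cyp2c70: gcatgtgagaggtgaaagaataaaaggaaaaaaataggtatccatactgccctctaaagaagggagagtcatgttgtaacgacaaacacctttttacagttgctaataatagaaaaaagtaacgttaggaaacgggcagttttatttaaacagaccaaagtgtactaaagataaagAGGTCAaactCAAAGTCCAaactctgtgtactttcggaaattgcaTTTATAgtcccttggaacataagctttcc
Cyp2c68: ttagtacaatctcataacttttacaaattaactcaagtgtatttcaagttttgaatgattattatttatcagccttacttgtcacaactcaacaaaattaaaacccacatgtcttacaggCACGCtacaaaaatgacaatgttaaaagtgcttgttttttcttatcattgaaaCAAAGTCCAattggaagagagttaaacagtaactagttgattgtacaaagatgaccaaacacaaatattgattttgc
Cyp3a11: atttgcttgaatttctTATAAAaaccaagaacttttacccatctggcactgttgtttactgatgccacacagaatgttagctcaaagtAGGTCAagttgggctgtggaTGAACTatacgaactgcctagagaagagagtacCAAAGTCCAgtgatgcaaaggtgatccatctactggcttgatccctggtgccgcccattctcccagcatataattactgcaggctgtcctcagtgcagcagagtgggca
Cyp2e1: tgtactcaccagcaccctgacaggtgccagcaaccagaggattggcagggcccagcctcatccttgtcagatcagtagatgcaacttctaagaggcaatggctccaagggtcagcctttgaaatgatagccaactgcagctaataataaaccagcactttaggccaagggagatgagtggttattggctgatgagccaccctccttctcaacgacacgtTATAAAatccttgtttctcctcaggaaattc

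The HNF4 element begins at -64 in Cyp2c70, at -77 in Cyp2c68 and at -109 in Cyp3a11, counted from the start site as 0, and is not in the Cyp2e1 window. Nor is it in the windows of Cyp2d26, Cyp4v3 and Cyp1a2, the other members called in a hepatocyte comparison. In the Cyp2c70 window the half-site AGGTCA begins at -74, on the same strand as the HNF4 element and with 4 bases between them. A promoter was found for 42 of the 52 members, 47 promoters in all. The HNF4 element is in 8 of these 47, those of Cyp2c40, Cyp2c65, Cyp2c67, Cyp2c68, Cyp2c69, Cyp2c70, Cyp3a11 and Cyp3a16, and in 0.384% of 32851 mouse promoters of that length. AGGTCA is in 9 of 47 against 14%, AGTTCA in 8 of 47 against 11.8%, GCGTG in 7 of 47 against 28.2% and TATAAA in 21 of 47 against 12.4%. Repeats of AGGTCA with 1 or with 4 bases between them (AGGTCANAGGTCA and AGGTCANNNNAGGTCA) are in 0 of 47. Neighbours in the Cyp2c and Cyp3a clusters arose by duplication, so these are not independent cases, and a match of letters is not a bound site.

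Hnf4a itself, on the list of 18 receptors and partners of the P450 genes, held 514 and 496 CPM in vehicle. The desmosterol libraries held 629 and 677 CPM, those of DMHCA 510 and 511, and those of MePipHCA 380 and 381. It rose with desmosterol (0.37 on the log2 scale, adjusted p = 0.0232) and fell with MePipHCA (-0.41, adjusted p = 0.00274). With GW3965 the change was -0.14 (adjusted p = 0.665) and with T0901317 -0.16 (adjusted p = 0.404). Whether Hnf4a or the HNF4 element has a part in the changes of the members was not tested. Hnf4a was the only one of the 17 genes of that list tested that was called with any ligand over vehicle. PXR (Nr1i2) was low, at 4.55 to 14.2 CPM over the 12 libraries, and CAR (Nr1i3) lower, at 0.477 to 2.19 CPM.

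Cyp2c68 held 37.5 and 44.3 CPM in vehicle, 25.4 and 20.4 with T0901317, and 30.3 and 28.5 with GW3965. The T0901317 libraries were the lowest of the 12, and the desmosterol, DMHCA and MePipHCA libraries lay between 36.3 and 46.2 CPM. It fell with T0901317 by -0.82 ± 0.16 on the log2 scale, 1.77-fold lower (adjusted p = 0.00436). With GW3965 the change was -0.47 (adjusted p = 0.251). The call was lost without T0901317 replicate 2 (adjusted p = 0.102) and without vehicle replicate 2 (0.1004).

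Cyp4v3 held 210 and 188 CPM in vehicle and 151 and 160 with T0901317, while the other 8 libraries lay between 171 and 186 CPM. It fell with T0901317 by -0.36 ± 0.09 (adjusted p = 0.0402). The call was lost without any 1 of the 4 libraries compared, with adjusted p of 0.283 and 0.103 without the T0901317 libraries and 0.295 and 0.0568 without the vehicle libraries, and in a fit of only the 2 groups compared (0.0509). Summed markers of macrophages and Kupffer cells were 261 to 274 CPM in the vehicle and 262 to 319 CPM in the T0901317 libraries. Of the 10 tested, only Cd5l was called, higher, and the median log2 fold change was -0.36. Cd5l was also called higher with T0901317 in the macrophage libraries. The part of these markers in the change of Cyp4v3 was not tested.

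Cyp2e1 held 151 and 150 CPM in vehicle and 111 and 116 with MePipHCA. The desmosterol libraries held 131 and 157 CPM and overlapped vehicle. It fell with MePipHCA by -0.41 ± 0.10 (adjusted p = 0.0326). Cyp2d26 held 54.4 and 47.8 CPM in vehicle and 38.1 and 32.1 with MePipHCA, a fall of -0.55 ± 0.14 (adjusted p = 0.0298). In both genes the MePipHCA libraries lay below both vehicle libraries, which was not particular to MePipHCA. For Cyp2e1 the DMHCA (121 and 134 CPM), GW3965 (113 and 136) and T0901317 libraries (127 and 133) also did. For Cyp2d26 the desmosterol (47.2 and 38.1 CPM) and GW3965 libraries (40.3 and 43.3) did, and those of DMHCA and T0901317 overlapped vehicle. None of these other changes was called. The Cyp2e1 call was lost without any 1 of the 4 libraries (adjusted p = 0.288 and 0.163 for the MePipHCA libraries, 0.191 and 0.124 for vehicle). The Cyp2d26 call was lost without MePipHCA replicate 1 (0.0548), MePipHCA replicate 2 (0.448) or vehicle replicate 1 (0.368). With libraries thinned to the smallest total the adjusted p was 0.0799 for Cyp2e1 and 0.0976 for Cyp2d26. Summed hepatocyte markers were 36921 and 33991 CPM with MePipHCA and 41845 and 36240 CPM in vehicle, of which Apoa1, Hnf4a and Fgb fell, and their part in these changes was not tested.

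**Figure D3:**
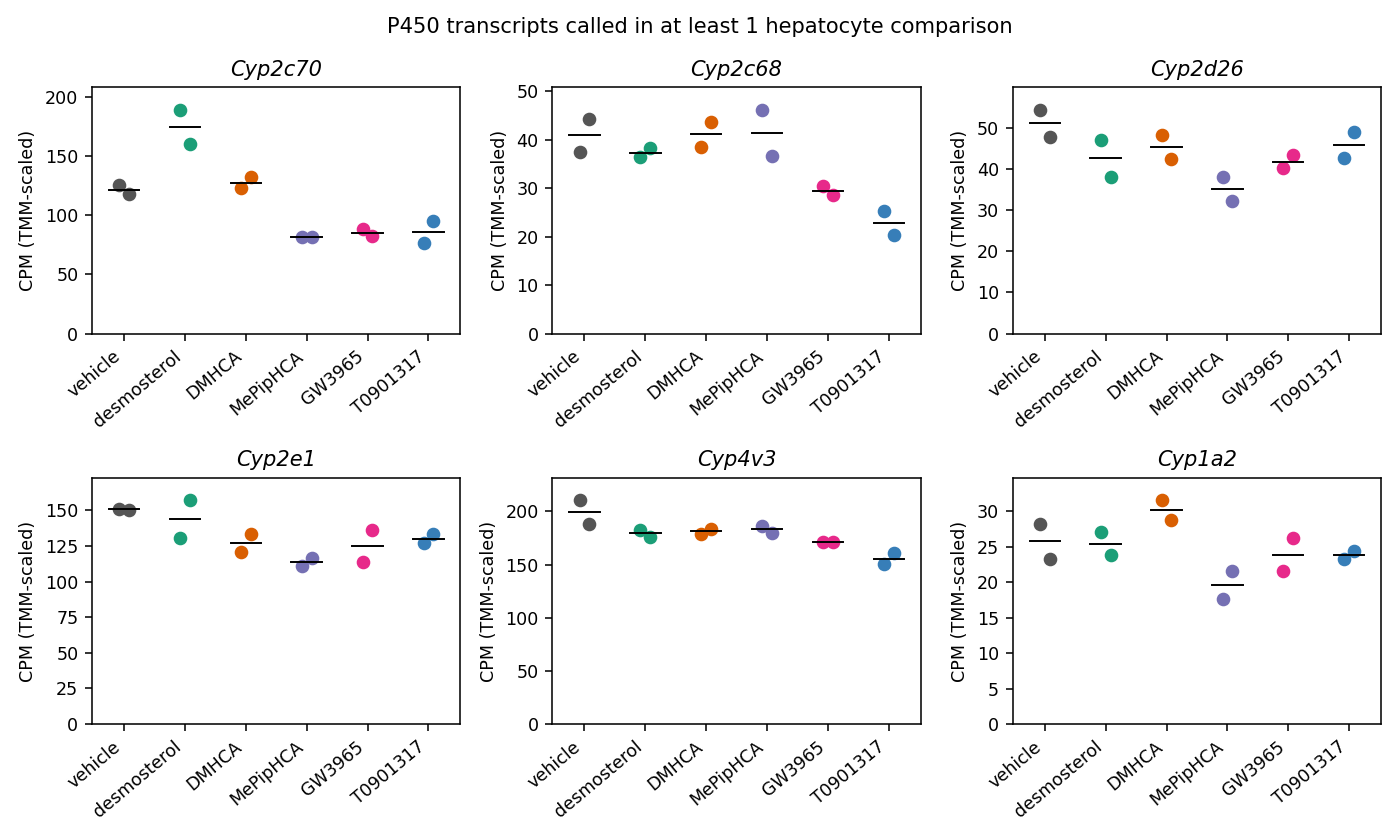
TMM-scaled CPM in each hepatocyte library (points, 2 per group, with the group mean as a line) for the 6 members called in at least 1 comparison. For Cyp2c70 the desmosterol libraries stand at 189 and 160 CPM and those of MePipHCA at 81.3 and 81.8 CPM, on either side of vehicle at 126 and 118 CPM.

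The genes used to read PXR and CAR activity were not called with any ligand. Cyp3a11 held 114 and 122 CPM in vehicle. Desmosterol libraries held 114 and 113 CPM, DMHCA libraries 95.7 and 95.8, MePipHCA libraries 93.9 and 113, GW3965 libraries 82.3 and 97.4, and T0901317 libraries 110 and 103. All 10 ligand libraries lay below both vehicle libraries, those of desmosterol by less than the vehicle libraries differed. The log2 fold change was -0.30 with DMHCA (95% interval -0.52 to -0.08, adjusted p = 0.973) and -0.39 with GW3965 (-0.61 to -0.17, adjusted p = 0.127). With T0901317 it was -0.15 (interval -0.36 to 0.07), with desmosterol -0.06 (-0.28 to 0.16) and with MePipHCA -0.18 (-0.40 to 0.03). With GW3965 it was called when no filter on low counts was applied (adjusted p = 0.0425). Cyp3a13 held 124 and 120 CPM in vehicle and 102 to 134 CPM over the ligand libraries, with changes between -0.24 and 0.01.

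Cyp2b10 held 133 and 95.7 CPM in vehicle and 82.4 to 133 CPM in the 10 ligand libraries. The vehicle libraries differed from each other by more than any ligand mean differed from the vehicle mean. Its change lay between -0.31 with DMHCA (interval -0.58 to -0.04) and 0.11 with MePipHCA (-0.16 to 0.38), and the lowest adjusted p over vehicle was 0.635. Cyp2c55, a further PXR and CAR target, had 61 counts in all, at most 10 in a library, did not pass the filter, and was not called without it.

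On the list of 29 PXR and CAR targets outside the P450s, 26 were tested. With MePipHCA 6 fell and 0 rose, where 2.17% of all genes were called in either direction. These were Sult1a1, Ugt2b34, Aldh1a7, Sult1d1, Aldh1a1 and Ephx1, which conjugate, oxidise or hydrolyse drugs and retinoids. The list median was -0.33 on the log2 scale. With MePipHCA it was -0.26 for 11 hepatocyte markers and -0.43 for 10 markers of periportal hepatocytes. For PPAR-alpha targets it was -0.22 and for AhR targets 0.01, both outside the P450s. Sult1a1, a sulphotransferase, went from 179 and 161 CPM in vehicle to 90.5 and 93.9 with MePipHCA (-0.89, adjusted p = 4.46e-06). Aldh1a1, which oxidises retinaldehyde, rose with desmosterol (0.37, adjusted p = 0.0258) and fell with MePipHCA (-0.86, adjusted p = 6.38e-08) and T0901317 (-0.38, adjusted p = 0.0108). With GW3965 Abcc2 rose and Sult1d1 fell, and with T0901317 Abcc2 and Gsta1 rose and Sult1a1, Sult1d1 and Aldh1a1 fell. Abcc2, the canalicular exporter of conjugates, rose with GW3965 by 0.64 (adjusted p = 0.000291) and with T0901317 by 0.68 (adjusted p = 0.000102).

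Of the AhR reporters, Cyp1a2, which oxidises caffeine and aromatic amines, held 28.2 and 23.3 CPM in vehicle and 17.6 to 31.6 CPM with ligands. Its change over vehicle was -0.40 with MePipHCA (interval -0.74 to -0.05, adjusted p = 0.322) and between -0.12 and 0.22 with the other ligands. Cyp1a1, nearly silent without AhR ligands, had 93 counts in all and 23 and 3 counts in the 2 vehicle libraries, and its intervals spanned several log2 units in each comparison. Of 8 tested AhR targets outside the P450s, Tiparp, an ADP-ribosyltransferase that restrains AhR, rose with MePipHCA (0.44, adjusted p = 0.00433) and Gsta1 rose with T0901317.

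The PPAR-alpha reporters were low. Cyp4a10 held 5.44 and 6.50 CPM in vehicle and 3.40 to 6.04 with ligands, and Cyp4a14 3.19 and 2.87 CPM in vehicle and 1.05 to 2.75 with ligands. Every ligand library of Cyp4a14 lay below both vehicle libraries, and neither gene was called. The Cyp4a14 change with T0901317 was -0.96, with an interval of -2.22 to 0.29 (adjusted p = 0.555). Of the 24 tested PPAR-alpha targets outside the P450s, Angptl4 rose (0.69, adjusted p = 0.00109) and Pdk4 fell (-0.99, adjusted p = 0.0102) with desmosterol, and Vnn1 fell with MePipHCA (-0.72, adjusted p = 0.0342). None was called with GW3965 or T0901317 in edgeR.

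**Figure D4:**
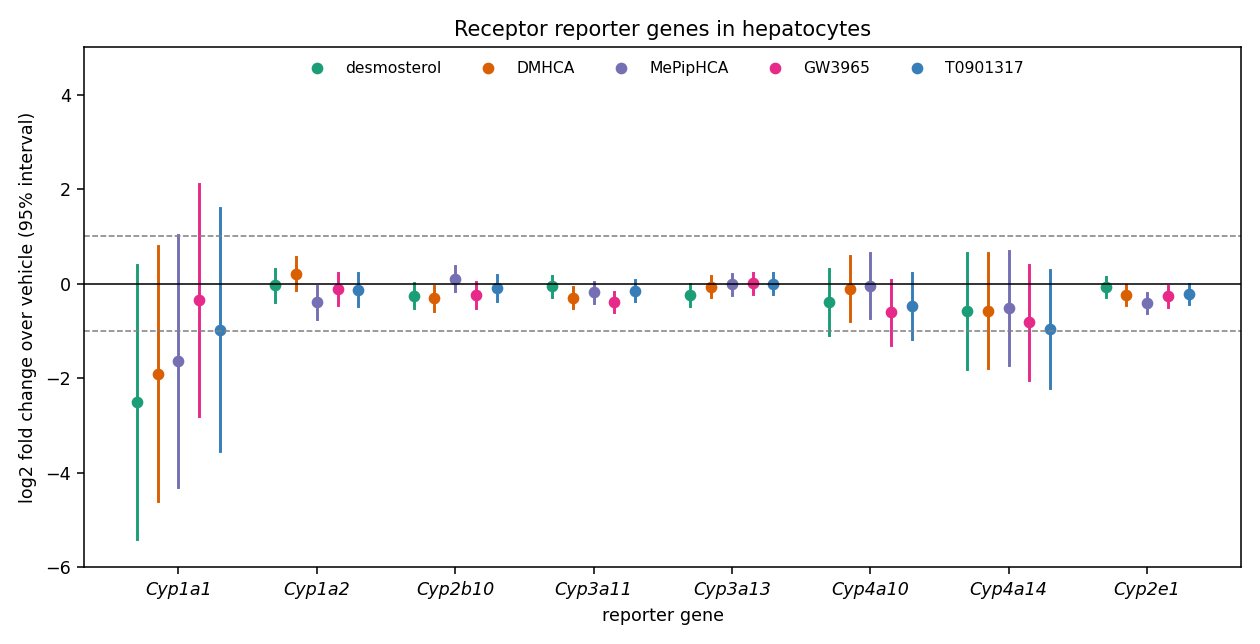
Log2 fold change over vehicle with its 95% interval in hepatocytes, for 8 genes read as reporters of AhR (Cyp1a1, Cyp1a2), CAR (Cyp2b10), PXR (Cyp3a11, Cyp3a13) and PPAR-alpha (Cyp4a10, Cyp4a14), with Cyp2e1 beside them, and 1 colour per ligand. Dashed lines mark a 2-fold change, and the intervals of Cyp1a2, Cyp2b10, Cyp3a11, Cyp3a13 and Cyp2e1 lie inside them for all 5 ligands.

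Of the other members, Cyp2j6, an epoxygenase of arachidonic acid, held 98.0 and 97.2 CPM in vehicle and 75.5 and 73.0 with T0901317, below the other 10 libraries. Its change of -0.39 missed the threshold (adjusted p = 0.0564), and DESeq2 called it (adjusted p = 0.00846). Cyp2r1, which hydroxylates vitamin D, held 9.57 and 8.77 CPM in vehicle and 5.90 and 4.75 with T0901317 (-0.78, adjusted p = 0.233). Cyp4f13, Cyp4f16, Cyp2d10, Cyp2a12 and Cyp2f2, the last known for naphthalene oxidation, had changes over vehicle between -0.30 and 0.23 and adjusted p of 0.687 or more with every ligand. In the remaining members the largest changes came with few counts, such as Cyp2c69, at 0.311 and 0.907 CPM in vehicle and 1.60 and 1.81 with GW3965 (interval -0.25 to 3.43).

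By subfamily, the tested Cyp2c members (11) had median log2 changes of -0.11 with desmosterol, -0.15 with DMHCA, -0.18 with MePipHCA, -0.39 with GW3965 and -0.33 in the T0901317 comparison. Besides the called pair, Cyp2c29 had 66.4 and 67.1 CPM in vehicle and 53.5 and 44.4 with T0901317 (-0.44, adjusted p = 0.0853, called by DESeq2). Cyp2c50 had 27.1 and 31.4 CPM in vehicle and 19.7 to 30.0 CPM with ligands, and its changes ran from -0.50 with MePipHCA to -0.18 with DMHCA, none called. The 5 tested Cyp2d members had medians between -0.15 and 0.04. The 4 tested Cyp3a members had medians between -0.19 and -0.07. The 6 Cyp4f members, fatty acid and eicosanoid omega-hydroxylases, had medians between -0.03 and 0.05. Cyp4b1, at 7.93 and 7.56 CPM in vehicle, changed by -0.51 with DMHCA (interval -1.08 to 0.05). Cyp2u1, which hydroxylates long-chain fatty acids, held 5.91 and 4.99 CPM in vehicle and 2.74 and 4.20 with T0901317 (-0.68, adjusted p = 0.529).

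The 8 members below the filter had 14 to 61 counts each over the 12 libraries: Cyp2a22, Cyp2a4, Cyp2c39, Cyp2c55, Cyp2c65, Cyp2d12, Cyp2d13 and Cyp3a16. Cyp2c39 had all of its 15 counts in the vehicle libraries and desmosterol replicate 1, and 0 in the other 9 libraries. None of the 8 was called in any hepatocyte comparison when the filter was left out.

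The 2 cholenamides differed in 2 of 44 members, both lower with MePipHCA than with DMHCA at the same dose and time, against 3.3% of all genes called. Cyp2c70 was lower by -0.65 ± 0.11 on the log2 scale (adjusted p = 0.000361), and the call held in all 12 alternatives. Cyp1a2 held 31.6 and 28.8 CPM with DMHCA and 17.6 and 21.7 with MePipHCA, a difference of -0.61 ± 0.16 (adjusted p = 0.0322). That call was lost without MePipHCA replicate 1 (adjusted p = 0.374), MePipHCA replicate 2 (0.0568) or DMHCA replicate 1 (0.219), with thinned libraries (0.107) and in a fit of only these 2 groups (0.054). Cyp2b10 was higher with MePipHCA by 0.42 (interval 0.16 to 0.69) and missed the threshold (adjusted p = 0.0708), and it was called without a filter on low counts (0.00386), in the fit of only these 2 groups (0.0465) and with the replicate block (0.026). Cyp3a11 differed by 0.11 (interval -0.10 to 0.33) and Cyp4v3 by 0.01 (-0.17 to 0.19).

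The synthetic agonists T0901317 and GW3965, of unrelated structure and at the same dose, differed in 0 of 44 members and 0 of 13176 genes (0%) by edgeR. DESeq2 also called 0 members, and 4 members and 667 genes had an unadjusted p under 0.05. Cyp2c70 differed by 0.01 (interval -0.21 to 0.23) and Cyp2c68 by -0.36 (-0.67 to -0.04, adjusted p = 0.936). The 95% interval lay within a 2-fold difference for 30 of the 44 members (68.2%) and for 75.4% of all genes. These were the 2 pairs of compounds compared at 1 uM, and p-values were adjusted over all genes within each pair. Desmosterol was given at 10 uM and is not set against the others.

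All members together took 0.160% and 0.150% of counts in the vehicle libraries of hepatocytes and 0.156% and 0.148% in the desmosterol libraries. The DMHCA libraries gave 0.143% and 0.145%, and the MePipHCA libraries 0.141% and 0.138%. GW3965 gave 0.131% and 0.136%, T0901317 0.132% and 0.133%. The desmosterol libraries overlapped vehicle, and those of the other 4 ligands lay below both vehicle libraries. This sum is a description with no test, and it is weighted towards Cyp4v3, which supplied 11.4% to 13.3% of it, and other abundant members.

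**Figure D5:**
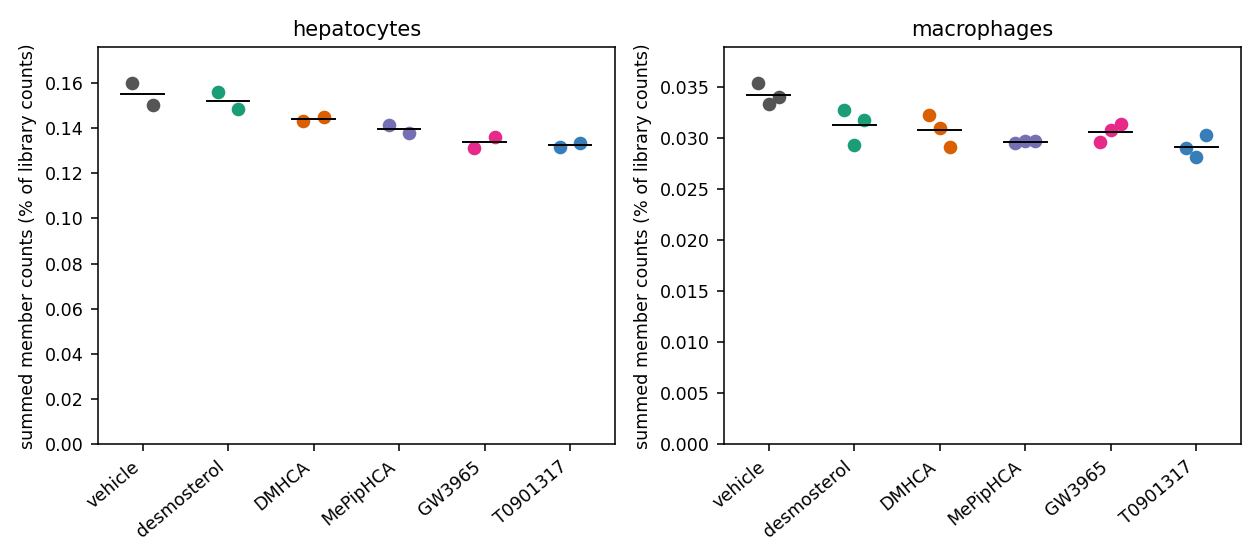
Summed counts of the 52 members as a percentage of each library's counts, for hepatocytes (left, 2 libraries per group) and macrophages (right, 3 per group), with group means as lines and separate axes that start at 0. Hepatocyte libraries range from 0.131% with GW3965 to 0.160% in vehicle, and macrophage libraries from 0.0281% to 0.0354%.

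Of the 14 genes on the list for electron supply and haem synthesis, all tested, Hmox1, which breaks down haem, fell with desmosterol (-0.87, adjusted p = 1.35e-07) and with MePipHCA (-0.56, adjusted p = 3.82e-05), and the cytochrome Cyb5b fell with MePipHCA (-0.31, adjusted p = 0.0342). None was called with DMHCA, GW3965 or T0901317. Por changed by 0.26 with desmosterol (adjusted p = 0.195) and Alas1, which starts haem synthesis, by -0.20 (adjusted p = 0.624). Of 9 tested P450s outside families 1 to 4, Cyp51, an enzyme of cholesterol synthesis, fell with MePipHCA (-0.86, adjusted p = 2.66e-07) and T0901317 (-0.35, adjusted p = 0.0438).

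In macrophages few members were detected. Of the 52 members, 28 had 0 counts in all 18 libraries, 13 had 1 to 9 and 11 had 10 or more, and 7 passed the filter on low counts. A count of 0 allows up to 3 counts over the 18 libraries, for counting error only. Cyp4v3 was the most abundant, at 97.6, 92.0 and 96.1 RPKM in vehicle, and it supplied 80.7% to 84.7% of the members' counts. Cyp4f13 followed at 15.5, 14.9 and 13.3 RPKM and Cyp4f16 at 7.25, 6.85 and 6.71 RPKM, in groups that did not overlap. Cyp2j6 lay at 2.46 to 2.81 RPKM and Cyp4f18, a leukotriene omega-hydroxylase, at 1.65 to 2.52 RPKM, with overlap. Cyp2r1 stood at 1.02 to 1.35 and Cyp4f17 at 0.550 to 1.12 RPKM. Summed macrophage markers (10 genes, Clec4f at 0) were 12995 to 18154 CPM in these libraries.

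With MePipHCA 3 of 7 macrophage members were called, all lower, against 35.4% of all 11544 genes tested. Cyp4f16 held 15.6, 14.7 and 14.4 CPM in vehicle and 8.88, 9.20 and 10.6 with MePipHCA, without overlap (-0.63 ± 0.17, adjusted p = 0.00264, called in all 13 alternatives). Cyp2j6 held 10.1, 8.81 and 9.20 CPM in vehicle and 8.66, 5.66 and 5.28 with MePipHCA (-0.54 ± 0.21, adjusted p = 0.0397). The Cyp2j6 call was lost without MePipHCA replicate 2 (0.133) or 3 (0.287), without vehicle replicate 1 (0.0963) or 3 (0.0638), in DESeq2 (adjusted p = 0.0981) and with thinned libraries (0.383). Cyp4v3 held 285, 268 and 280 CPM in vehicle and 245, 250 and 251 with MePipHCA (-0.16 ± 0.05, adjusted p = 0.0136), a call lost without MePipHCA replicate 1 (0.0553) or vehicle replicate 1 (0.0511). Summed macrophage markers were 16251 to 16345 CPM in vehicle and 12995 to 13166 CPM with MePipHCA, where Lyz2, Itgam, Ptprc and Csf1r fell and Cd5l rose of 7 tested, and their part in these changes was not tested.

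With T0901317 1 of 7 was called, against 12.8% of all genes. That was Cyp4v3, which fell, at 239, 228 and 249 CPM (-0.21 ± 0.05, adjusted p = 0.00256), called in all 13 alternatives. The same markers summed to 14723 to 15408 CPM with T0901317, where Cd68, Itgam, Ptprc and Csf1r fell and Cd5l rose, and their part was not tested. Desmosterol, DMHCA and GW3965 called 0 of 7 in edgeR, where 9.5%, 11.7% and 13.2% of all genes were called. DESeq2 also called 0 with these 3 ligands, and 0, 0 and 1 members had an unadjusted p under 0.05. Without DMHCA replicate 1, Cyp4f16 was lower with DMHCA (adjusted p = 0.0329). Without T0901317 replicate 3, Cyp2j6 was lower with T0901317 (adjusted p = 0.0216).

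Whether a member's change differed between the cell types was tested as an interaction over all 30 libraries, for the 7 members tested in both. None was called for any of the 5 ligands in edgeR, where 2.53% (desmosterol), 2.75% (DMHCA), 9.66% (MePipHCA), 3.11% (GW3965) and 3.64% (T0901317) of 13700 genes were. DESeq2 was not run on this question, and 2 members had an unadjusted p under 0.05, both with MePipHCA. The lowest adjusted p was that of Cyp2j6 with MePipHCA, which changed by 0.05 in hepatocytes and -0.54 in macrophages, a difference of -0.57 (interval -1.02 to -0.12, adjusted p = 0.101).

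Cyp1b1, which oxidises oestrogens and polycyclic hydrocarbons and is an AhR target, had too few hepatocyte counts to be a member and was detected in macrophages. It is named as the family gene outside the set with most macrophage counts, chosen after its values were seen. Vehicle libraries held 14.9, 22.5 and 15.8 CPM and MePipHCA libraries 4.33, 8.26 and 4.99, without overlap. It fell 3.15-fold with MePipHCA (-1.65 ± 0.23, adjusted p = 1.72e-07) and was not called with the other 4 ligands. With DMHCA its change was -0.52 ± 0.19 (adjusted p = 0.0734). It was 0.20 with desmosterol, -0.08 with GW3965 and 0.23 with T0901317. Summed markers of stellate cells and fibroblasts (8 genes, none at 0) were 158 to 197 CPM in the macrophage vehicle libraries and 48.5 to 59.2 CPM with MePipHCA, and 6 of the 6 tested fell. With DMHCA these markers summed to 91.7 to 124 CPM, and 5 of the 6 fell. They summed to 151 to 187 CPM with desmosterol, 146 to 154 with GW3965 and 170 to 225 with T0901317. Of the 6, 1 fell with GW3965 and 0 with desmosterol or T0901317. The part of these markers in the changes of Cyp1b1 and of the members was not tested.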

How the data were processed

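The authors aligned reads with STAR and counted them with HOMER on mm10, per the submitters' processing notes, with versions and strand option not given in the sources used here. The deposited count tables hold raw exon counts, with each gene represented by 1 RefSeq transcript, per the file headers. The deposited RPKM tables were not used. Counts were tested in edgeR 4.0.16 (R 4.3.3): filterByExpr, TMM scaling, 1 mean per group, quasi-likelihood test over the 6 groups of a cell type, Benjamini-Hochberg adjustment over all genes. Residual degrees of freedom were 6 in hepatocytes and 12 in macrophages, with coefficients of variation of 0.106 and 0.0554. CPM and RPKM were computed from the counts, with lengths from the count table. The joint fit joined the tables by symbol. The fit was tested on simulated data. Intervals are at 95%, and floors of 3 counts cover counting error only. Shared words came from GENCODE M21 transcripts, for 50 of 52 members, and promoters from RefSeq. Alternatives were DESeq2 1.42.0, its size factors, library totals, no filter, thinned libraries, only the groups compared, a replicate block, and single libraries left out. Members and lists were chosen with earlier results of these data known. Members named are those called, the receptor reporters, those tested in macrophages and the most abundant of the larger subfamilies; a few others were added after their values were seen (Cyp2j9, Cyp2c69, Cyp2c29, Cyp2c50, Cyp2c39, Cyp1b1). Replicate numbers were not taken as pairing in the main fits, and whether they pair the samples is not known.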

Additional observations from a re-analysis of the deposited data

How the results depend on the processing

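With 2 replicates per group, hepatocyte calls rest on few libraries. Of the 14 pairs of called member and comparison, 172 alternative values were computed, of which 130 kept the call, 42 lost it and 0 changed sign. The sign of a change that was not called was not counted. No scaling moved the median of all genes by over 0.1 on the log2 scale. Without a filter on low counts, 2 members were called with GW3965 (Cyp3a11 added), 3 for MePipHCA against DMHCA (Cyp2b10 added, higher) and 5 with T0901317, and DESeq2 also called 5 with T0901317 (in both cases Cyp2c29 and Cyp2j6 were added). With libraries thinned to the smallest total, 1 member was called for MePipHCA over vehicle and 1 for MePipHCA against DMHCA. With desmosterol replicate 1 and T0901317 replicate 2 both left out, a choice made after seeing the data, 0 members were called with desmosterol and 1 with T0901317. With library totals in place of TMM factors, 1 member (Cyp4v3) was called with GW3965 in macrophages. The cause was not tested, except that fewer counts or samples enter by construction when thinning or leaving out.

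Leaving out 1 replicate at a time gave 0 to 1 called members with desmosterol, 0 to 0 with DMHCA, 1 to 2 with MePipHCA, 0 to 0 with GW3965, 0 to 1 with T0901317, 1 to 2 for MePipHCA against DMHCA and 0 to 0 for T0901317 against GW3965 in hepatocytes. In macrophages it gave 0 to 1 with DMHCA, 1 to 3 with MePipHCA, 1 to 2 with T0901317, and 0 with desmosterol and GW3965. Deviations of same-numbered samples correlated between -0.06 and 0.13 in hepatocytes and between -0.15 and 0.20 in macrophages, so the numbers were not taken as pairing. With the replicate block, 3 members were called for MePipHCA against DMHCA in place of 2 (Cyp2b10 added, adjusted p = 0.026), and the other counts were unchanged, such as 3 with MePipHCA and 1 with desmosterol. In all, 10 of 12 hepatocyte and 11 of 18 macrophage libraries correlated best with their own number, so a pairing is not excluded. The 2 hepatocyte libraries of a group deviate from their mean by equal and opposite amounts, so they are not separate cases. What unrelated numbers would give was not computed.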
